A study of Mus musculus with 2 samples.

Results

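The genes examined encode the complexes of oxidative phosphorylation, the last stage of respiration in the inner mitochondrial membrane. They were chosen by name: a probe set with a single gene symbol in the platform annotation whose symbol began with Nduf, Sdha, Sdhb, Sdhc, Sdhd, Uqcr, Cox4, Cox5, Cox6, Cox7, Cox8 or Atp5, or was Cyc1 or Cycs. This gave 85 of the 8721 genes of the table. Of these, 32 encode subunits of complex I, 4 of complex II, 9 of complex III, 14 of complex IV and 17 of complex V, the ATP synthase. A single gene, Cycs, encodes cytochrome c, and 8 encode assembly factors, which help to build complex I or II and are not part of the finished enzyme. Ndufa4, named for complex I, is counted here with complex IV, where its protein is now placed. Cox7a2l, a factor that joins complexes III and IV, is also counted here among the subunits of complex IV.

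Complexes I and II pass electrons from NADH and succinate to ubiquinone, complex III passes them on to cytochrome c, and complex IV passes them to oxygen. Complexes I, III and IV pump protons as they do so, and complex V uses the return of the protons to make ATP. Absorptive cells of the colon are rich in mitochondria and burn butyrate, a product of gut bacteria, as a main fuel. Most subunits are encoded in the nucleus and are described here. The core subunits encoded by mitochondrial DNA were not analysed here.

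RNA came from epithelial cells of the colon of mice aged 7 weeks, of the inbred strain C57BL/6. One group of cells had been incubated with PBS, a buffered salt solution, and the other with MIF, read here as the cytokine macrophage migration inhibitory factor. Each group was measured on 1 Affymetrix array, so there was no spread between samples to test against, and precision is limited by this number. The sources used here give neither the dose and time nor the number of animals and the isolation of the cells. The labels name no transgene or altered allele in either group. The unit is the authors' processed probe set signal on a linear scale. Each gene has the value of its brightest probe set, by mean log2 signal. Signals under a floor of 232, the 40th percentile over both groups, were raised to it, and a gene below the floor in both groups was not assessed. Differences are on the log2 scale, MIF minus PBS, so a negative value is a lower signal with MIF.

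The median signal of all probe sets was 337 with PBS and 346 with MIF. The labelled cell type was checked against its markers. Of 14 listed markers of colon epithelium the table held 13, each above the floor in both groups, with Epcam, an epithelial adhesion molecule, at 8889 and 8830. Their median log2 difference was -0.05, and 10 of 13 were below 0. Of the leukocyte markers, 7 of 10 present were below the floor in both groups, among them Ptprc, the common leukocyte antigen, at 173 and 137. Their summed signal was 2066 with PBS and 1364 with MIF. The brightest were the granule protease genes Gzma, at 813 and 403, and Gzmb, at 541 and 282. Of the 3 assessed leukocyte markers these 2 were lower with MIF. Lyz2, at 188 and 243, was under the floor with PBS and near it with MIF, with a difference of 0.07 after the floor. For the fibroblast markers the summed signal was 803 with PBS and 1932 with MIF, and 5 of 8 lay below the floor in both groups. The 3 assessed were higher with MIF. Dcn, at 235 and 678 and near the floor with PBS, had the highest log2 difference of all assessed genes (1.53). Col3a1, at 227 and 554, and Vim, at 175 and 253, were under the floor on the PBS array. Their differences after the floor were 1.26 and 0.13. In bulk RNA, fewer cells of a type and less RNA per cell cannot be told apart, and the part of these cells in the differences below was not tested.

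The oxidative phosphorylation genes had slightly lower signals with MIF. Their median log2 difference was -0.09, and 70 of the 82 assessed genes (85.4%) lay below 0. Over all 5837 assessed genes the median was -0.01 and 53.3% lay below 0. No member reached 1.5-fold in either direction, against a background of 0.463% of all assessed genes lower and 0.634% higher. At 1.2-fold, 5 members were lower, which is 6.1% of them against 6.29% of all assessed genes. As deposited, that count is near the background. No member was 1.2-fold higher, against 6.82% of all assessed genes. With 1 array per group, these counts describe the arrays and carry no p-value.

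The count at 1.2-fold moved with the scaling of the arrays, and so did its place against the background. After median centring it was 10 members, or 12.2%, against 8.90% of all assessed genes. It was 2 members, or 2.44%, after quantile normalization and also after removal of the trend with intensity. All assessed genes then had 7.28% and 6.96%. The 5 genes lower as deposited were Ndufb7, Sdhaf1, Uqcr11, Ndufs7 and Atp5e. Just inside the limit were Uqcr11 (1.203-fold lower), Ndufs7 (1.201-fold lower) and Atp5e (1.20005-fold lower). Just outside it were Ndufb10 (1.196-fold lower) and Ndufv1 (1.19-fold lower).

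The members differed less from each other than genes in general. The SD of the log2 difference over the members was 0.10, against 0.19 over all assessed genes. Within 1.1-fold lay 60 of 82 members (73.2%), against 61.3% of all assessed genes and 68.3% of the other bright genes described next. Most members are brightly measured, and 73 of the 82 fell in the top 25% of genes by mean signal. The other 1314 genes of that range had a median of -0.04, an SD of 0.17 and 62.2% of differences below 0. The median of the members was thus 0.05 lower than that of other bright genes on the log2 scale. It stayed below theirs under each of the 8 alternative settings of scaling, floor and probe set choice, by 0.04 to 0.07. After quantile normalization and after removal of the trend with intensity the members' own median was -0.04, and 11 and 13 members turned from below to above 0. Each member that turned had differed by at most 0.09 as deposited. After quantile normalization the share of members below 0 was 70.7%, against 51.3% of other bright genes. Removing the trend with intensity gave 70.7% and 49.8%.

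**Figure D1:**
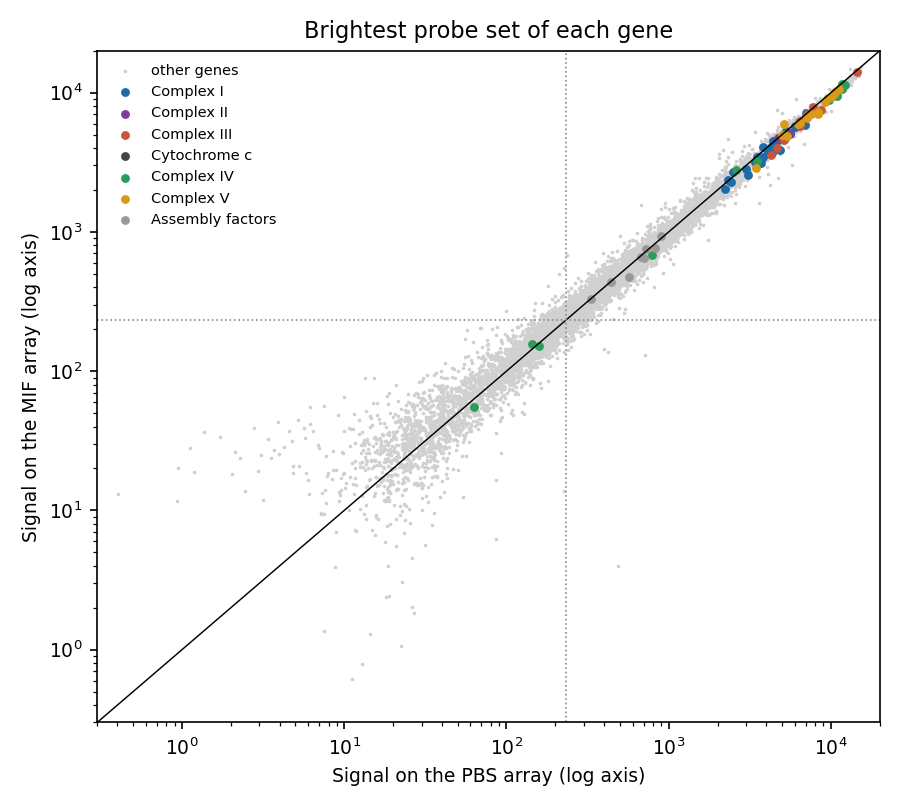
Signal of each gene's brightest probe set on the PBS array (x) and the MIF array (y), both on log axes. Coloured points are the 85 oxidative phosphorylation genes by complex, grey points are other genes, the line marks equal signals and the dotted lines mark the floor of 232. The members lie close to the line, mostly at high signal and slightly under it, and 3 lie under the floor in both groups.

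The promoters of a few members are shown for the letters that known regulators of respiratory genes recognise. NRF1, GABPA and YY1 are transcription factors known to bind promoters of many nuclear genes of the respiratory chain, and ERRA is a nuclear receptor that acts with the coactivator PGC-1. Windows ran from 250 bases before to 50 bases after the start that the promoter table gives, from RefSeq on GRCm38.p6, and both strands were searched. That start was the outer edge of the RefSeq gene for 58 of the members' 77 windows and lay inside the gene for 19. Ndufs7 and Uqcr11 are shown because they were among the 5 members lower by 1.2-fold, and Atp5o because its probe sets were opposed. Sdha and Uqcrc1 are shown because they held several NRF1 matches. Cox6a1, which held 2, is not shown. Capitals mark matches to GCGCA and GCGC with any base between them (NRF1), CCGGAAGT (GABPA), AAGATGGC (YY1) or TCAAGGTCA (ERRA) on either strand, and no marked matches overlap.
Ndufs7 promoter, chr10:80249199-80249498, plus strand: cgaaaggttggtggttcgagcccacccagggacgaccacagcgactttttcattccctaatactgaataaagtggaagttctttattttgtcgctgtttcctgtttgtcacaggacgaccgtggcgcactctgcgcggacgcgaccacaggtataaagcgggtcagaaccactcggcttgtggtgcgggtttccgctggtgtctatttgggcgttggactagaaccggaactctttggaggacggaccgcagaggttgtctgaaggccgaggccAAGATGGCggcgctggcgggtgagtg
Uqcr11 promoter, chr10:80406772-80407071, minus strand: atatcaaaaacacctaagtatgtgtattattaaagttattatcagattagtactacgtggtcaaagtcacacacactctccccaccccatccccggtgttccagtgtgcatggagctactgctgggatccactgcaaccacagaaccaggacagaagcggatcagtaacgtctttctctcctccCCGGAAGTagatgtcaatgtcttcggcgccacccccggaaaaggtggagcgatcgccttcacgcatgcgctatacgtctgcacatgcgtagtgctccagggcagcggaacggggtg
Sdha promoter, chr13:74350191-74350490, minus strand: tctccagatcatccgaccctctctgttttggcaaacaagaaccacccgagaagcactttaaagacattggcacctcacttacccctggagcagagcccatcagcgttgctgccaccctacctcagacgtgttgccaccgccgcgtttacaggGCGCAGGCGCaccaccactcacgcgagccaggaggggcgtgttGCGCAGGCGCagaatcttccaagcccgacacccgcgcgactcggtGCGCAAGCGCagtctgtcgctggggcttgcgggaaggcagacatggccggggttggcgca
Uqcrc1 promoter, chr9:108936398-108936697, plus strand: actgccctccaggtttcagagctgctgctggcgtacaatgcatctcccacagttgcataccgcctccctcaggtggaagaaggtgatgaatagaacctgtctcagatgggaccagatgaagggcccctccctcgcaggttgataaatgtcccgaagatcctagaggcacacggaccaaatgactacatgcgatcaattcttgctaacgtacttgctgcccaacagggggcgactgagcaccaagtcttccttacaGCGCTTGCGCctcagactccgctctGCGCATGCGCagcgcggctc
Atp5o promoter, chr16:91931581-91931880, minus strand: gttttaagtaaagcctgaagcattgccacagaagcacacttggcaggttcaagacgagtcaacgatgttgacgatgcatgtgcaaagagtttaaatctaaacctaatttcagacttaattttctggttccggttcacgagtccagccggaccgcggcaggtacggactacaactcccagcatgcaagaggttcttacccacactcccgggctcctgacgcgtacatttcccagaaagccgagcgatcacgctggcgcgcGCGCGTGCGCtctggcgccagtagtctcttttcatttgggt

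Positions are counted from the start of the window's transcript as base 1. The match in Ndufs7 is to YY1 and begins at base 25, counted from a start that lies 344 bases inside the RefSeq gene. The other 4 starts shown are the outer edges of their genes. In Uqcr11 the match is to GABPA, beginning at base -66. Sdha held 3 NRF1 matches, beginning at bases -98, -55 and -10, Uqcrc1 held 2, beginning at bases 6 and 31, and Atp5o held 1, beginning at base 10. A match is a description of letters and does not show binding.

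Promoters were found for 72 of the 85 members, with 77 windows. The NRF1 letters stood in 23.4% of these windows, against 11.4% of the 6223 windows of assessed genes and 4.60% of all 32851 windows. The YY1 letters stood in 11.7%, against 5.30% and 2.75%. For GABPA the shares were 6.49%, 9.51% and 3.89%, and for ERRA 2.60%, 0.209% and 0.423%, the first of these being 2 windows. SP1, a factor of GC-rich promoters, has the letters GGGCGG, which can overlap the others. These stood in 46.8% of members' windows, against 64.9% and 35.7%. The 17 assessed members with an NRF1 match had a median log2 difference of -0.08, and the 53 without had -0.10. Members with a YY1 match (9 genes) had a median of -0.08, against -0.10 for the other 61. No test was made of these shares or medians.

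**Figure D2:**
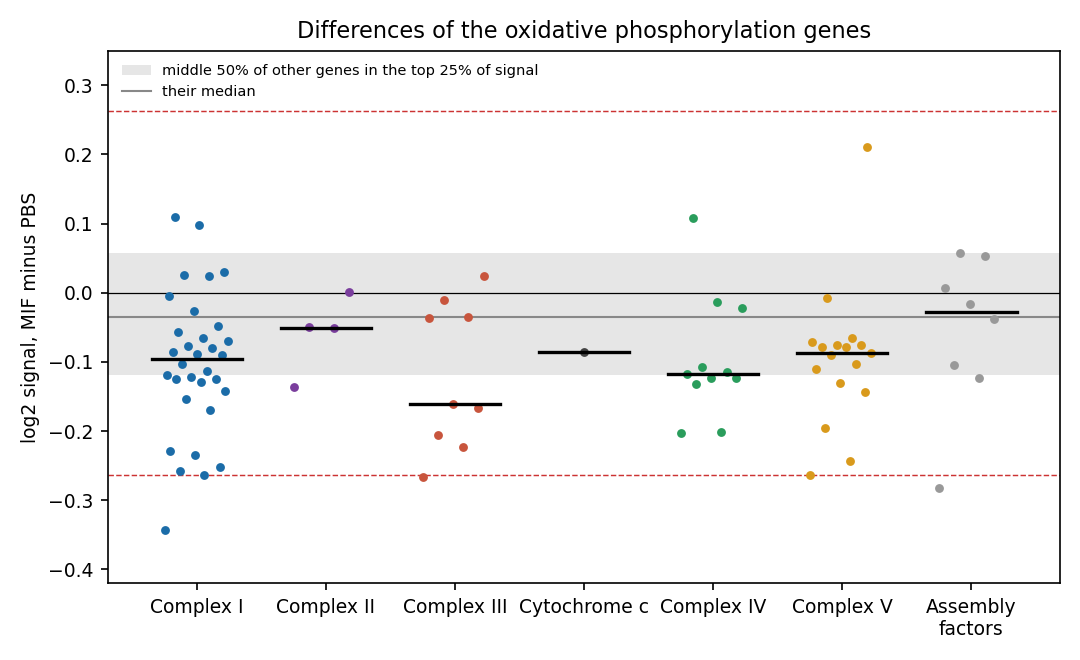
Log2 signal, MIF minus PBS (y), for the 82 assessed genes, grouped by complex. Each point is a gene, black bars are group medians, the grey band is the middle 50% of other genes in the top 25% of signal with their median of -0.04 as a grey line, and dashed red lines mark 1.2-fold. The medians of all 5 complexes lie below the grey line, and the highest point is Atp5md at 0.21.

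Complex I, the NADH dehydrogenase, had a median log2 difference of -0.10 over 32 subunits, and 27 were below 0. The median was -0.07 after quantile normalization and -0.06 after removal of the trend with intensity. The largest difference was in Ndufb7, an accessory subunit of the membrane arm, which had a signal of 4884 with PBS and 3849 with MIF. It was 1.27-fold lower, and its second probe set was lower by 0.29 on the log2 scale. Ndufs7, a core subunit that holds the iron-sulphur cluster next to ubiquinone, went from 3092 to 2575. Its second probe set differed by -0.24. Ndufb10, another accessory subunit of the membrane arm, went from 3717 to 3107 (-0.26). Ndufv1, the core subunit that binds NADH and flavin, went from 4716 to 3962 (-0.25), and its other probe sets differed by -0.16 and -0.18. Each of these 4 genes was lower with MIF on every probe set that lay above the floor.

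The arms of complex I were compared by their medians. The 5 subunits of the arm that binds ubiquinone had a median of -0.14 and all 5 were below 0 (4 of 5 with quantile normalization or the intensity trend removed), from -0.26 for Ndufs7 to -0.03 for Ndufa5. The 17 subunits of the membrane arm had a median of -0.11, with 15 below 0. The 9 subunits of the arm that oxidises NADH had a median of -0.08 and a wider SD, 0.12 against 0.10 in the ubiquinone-binding arm, from -0.25 for Ndufv1 to 0.11 for Ndufs1. Ndufs1, the core subunit with the largest number of iron-sulphur clusters, had signals of 2507 and 2704. Besides it, Ndufs4 (0.03) and Ndufa6 (0.02), accessory subunits of the same arm, were above 0, as were the membrane arm subunits Ndufb6 (0.10) and Ndufa1 (0.03). The 6 core subunits had a median of -0.19 and the 26 accessory subunits -0.09. Groups this small rest on few probe sets, and no test was made between them.

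Ndufs8, a core subunit with a pair of iron-sulphur clusters, showed how far probe sets of one gene can differ. Its brightest probe set went from 6907 to 5892, a log2 difference of -0.23. The other probe sets above the floor differed by -0.32, -0.44, -0.81 and -0.26. All 5 were lower with MIF. The widest, at 3421 and 1954, was 1.75-fold lower, from a probe set of the type that can cross-hybridise. A sixth probe set lay below the floor in both groups. Ndufa12, an accessory subunit of the NADH-oxidising arm, was steadier, at -0.24, -0.22 and -0.15 over 3 probe sets. Ndufa7, of the same arm, lay between -0.15 and -0.06 over 5.

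Complex II, succinate dehydrogenase, links the chain to the citric acid cycle and had a median of -0.05 over 4 subunits. Sdha, the flavoprotein that oxidises succinate, had signals of 4696 and 4698, a log2 difference of 0.00047, and its second probe set differed by -0.12. Sdhb, the iron-sulphur subunit, had 7202 and 6949 (-0.05). The membrane anchors Sdhc, at 4938 and 4772 (-0.05), and Sdhd, at 5624 and 5117 (-0.14), each had a second, dimmer probe set on the other side of 0, at 0.05 and 0.04. The median of complex II was -0.01 with quantile normalization and turned to 0.0041 when the trend with intensity was removed, so no direction is given for it.

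Complex III, which passes electrons from ubiquinol to cytochrome c, had a median of -0.16 over 9 subunits, with 8 below 0. The median was -0.11 with quantile normalization and also with the intensity trend removed, with 5 of 9 below 0 in each. It was the lowest of the complexes in these settings, but without probe sets that can cross-hybridise it was -0.10, above the -0.12 of complex IV. Uqcr11, its smallest subunit, went from 4264 with PBS to 3544 with MIF (-0.27). Uqcrq, a small subunit, went from 4677 to 4007 (-0.22). Cyc1, the haem-bearing cytochrome c1, went from 8725 to 7564 (-0.21), and Uqcr10, another small subunit, from 5148 to 4587 (-0.17). Each of these 4 genes had a single probe set above the floor. The core protein Uqcrc1 differed by -0.16, whereas its partner Uqcrc2 differed by 0.02, with -0.08 on a second probe set. Nearest to 0 on the lower side were Uqcrh, the hinge protein (-0.01), Uqcrb (-0.03) and Uqcrfs1, the Rieske iron-sulphur protein (-0.04). Uqcrh, Uqcrb and Uqcrfs1 each turned above 0 under both of those scalings. Cytochrome c itself, Cycs, had signals of 11976 and 11290 (-0.09), with -0.06 and -0.13 on its other probe sets, and -0.0068 after quantile normalization.

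Complex IV, cytochrome c oxidase, had a median of -0.12 over 11 assessed genes, with 10 below 0. With quantile normalization or the intensity trend removed the median was only -0.04, with 8 of 11 below 0. Cox5b, a zinc-binding subunit, went from 10876 to 9453 (-0.20), and its 4 probe sets lay between -0.20 and -0.07. Cox7a1, the isoform typical of heart and skeletal muscle, went from 791 to 688 (-0.20). Cox7a2, the isoform of other tissues, went from 12268 to 11260 (-0.12). Cox4i1, a regulatory subunit that binds ATP, went from 11679 to 10659 (-0.13). Cox6b1 (-0.11) and Cox6a1 (-0.12) lay near the median of the complex. Cox5a, the partner of Cox4i1 (-0.01), and Cox8a (-0.02) lay near 0 on their brightest probe sets and above 0 under both of those scalings. As deposited, the other probe sets of Cox5a differed by -0.05 and -0.11, and the second of Cox8a by -0.13. Cox6c differed by -0.12, and by 0.10 on its second probe set. Ndufa4 was the only assessed gene of the complex above 0, at 2594 and 2796 (0.11), from a single probe set.

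Cox7a2l encodes a factor that joins complexes III and IV into supercomplexes, and C57BL/6 mice are known to carry a shortened form of it. Its 3 probe sets differed by -0.11, -0.17 and -0.16. The testis isoforms Cox6b2, at 63.1 and 55.0, and Cox8c, at 144 and 156, lay below the floor in both groups. So did both probe sets of the ubiquitous subunit Cox7c, the brighter at 159 and 150. These 3 genes were not assessed.

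Complex V, the ATP synthase, had a median of -0.09 over 17 subunits, with 16 below 0. The median was -0.03 with quantile normalization (10 of 17 below 0) and -0.02 with the intensity trend removed (12 of 17). In its catalytic head and central stalk all 5 subunits were below 0 as deposited, but after quantile normalization Atp5a1 (0.0021), Atp5b (0.02) and Atp5c1 (0.01) lay above 0. Atp5a1 and Atp5b, the alpha and beta chains that bind nucleotide, both differed by -0.07, at signals of 10428 and 9930 for Atp5a1 and 10808 and 10326 for Atp5b. The gamma chain Atp5c1 differed by -0.09. Larger differences were found in the small chains of the central stalk. The delta chain Atp5d went from 8370 to 7306 (-0.20), with -0.18 on a second probe set, and the epsilon chain Atp5e went from 3438 to 2864 (-0.26).

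The peripheral stalk, which holds the head still, had a median of -0.08 over 4 subunits, and -0.02 under both of those scalings. Atp5o, the subunit that confers sensitivity to oligomycin, went from 8367 to 7072 (-0.24), but its second probe set went from 2467 to 2639 (0.10). Of the other stalk subunits, Atp5pb, Atp5h and Atp5j lay between -0.09 and -0.08 on their brightest probe sets. The second probe set of Atp5pb differed by 0.05 and that of Atp5h by -0.14. Atp5g1, Atp5g2 and Atp5g3 encode the same mature protein of the rotating c ring with different import signals. They differed by -0.10, -0.01 and -0.08, and Atp5g2 was above 0 under both scalings. Among the small membrane subunits, Atp5mpl (-0.14), Atp5k (-0.13), Atp5j2 (-0.11) and Atp5l (-0.07) were below 0. Atp5md, which helps synthase dimers form, was above 0, at 5114 with PBS and 5915 with MIF (0.21), and had the highest value of the 82 members. It has a single probe set.

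The assembly factors had a median of -0.03 over 8 genes, with 5 below 0, and -0.06 after quantile normalization, with 6 below 0. Sdhaf1, which guards the iron-sulphur clusters of Sdhb, went from 573 with PBS to 471 with MIF (-0.28). Sdhaf2, which attaches flavin to Sdha, had 678 and 660 (-0.04), and Sdhaf4, which helps to join Sdha to Sdhb, had 729 and 759 (0.06). The complex I factors lay closer together. Ndufaf1 had 708 and 650 (-0.12) and Ndufaf3 had 828 and 771 (-0.10). Ndufaf4 had 898 and 932 (0.05), with 0.08 on a second probe set. Ndufaf5, at 331 and 327 (-0.02), and Ndufaf7, at 438 and 440 (0.0068), were nearly equal on both arrays. The difference between assembly factors and subunits was not tested.

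Separate probe sets of a gene measured the error within these arrays. Of the members, 41 had at least 2 probe sets that passed the floor in both groups. The second probe set had the sign of the first in 30 of them, 27 lower and 3 higher. Over these genes the second probe sets had a median of -0.08 with 29 of 41 below 0 (70.7%). Second probe sets of all 1800 genes that had one gave 0.03 and 43.4%. Those of 653 other bright genes gave 0.01 and 46.4%. The pooled SD between probe sets of a member was 0.09, nearly as large as the members' median difference itself. Single differences near 0 thus have no settled direction. Such repeats measure the same RNA and say nothing of the spread between cell preparations.

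**Figure D3:**
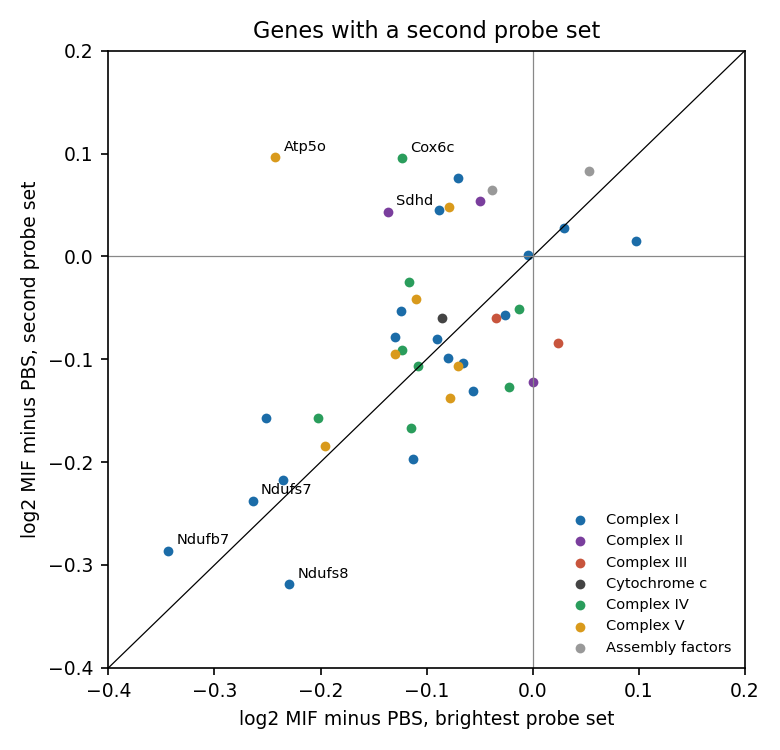
Log2 signal, MIF minus PBS, for the brightest probe set (x) and the second probe set (y) of the 41 genes with both above the floor. Points are genes by complex and the diagonal marks equality. Ndufb7, Ndufs8 and Ndufs7 are low on both, whereas Atp5o, Sdhd and Cox6c are below 0 on the first and above 0 on the second.

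Members with short genes had lower values than members with long ones. Gene lengths were taken from RefSeq on GRCm38.p6 and span introns. Across the 82 assessed members, which share both arrays, the log2 difference had a Pearson r of 0.39 and a Spearman rho of 0.39 with the log10 gene length. Across the 1314 other bright genes rho was 0.25, with a length known for 1313. The median length was 7336 bases for the members and 17199 for those genes. Members at or under 7336 bases had a median difference of -0.12 with 87.8% below 0, and longer ones -0.08 with 82.9%. Other bright genes at or under that length had a median of -0.07 with 75.2% below 0, and longer ones -0.02 with 57.7%. The lower values of short genes were thus also seen in other bright genes, and the part of gene length in the members' median was not tested. Promoter GC content, at a median of 59%, had a rho of 0.17 over 70 members. Genes are not independent replicates, and these correlations are descriptions.

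**Figure D4:**
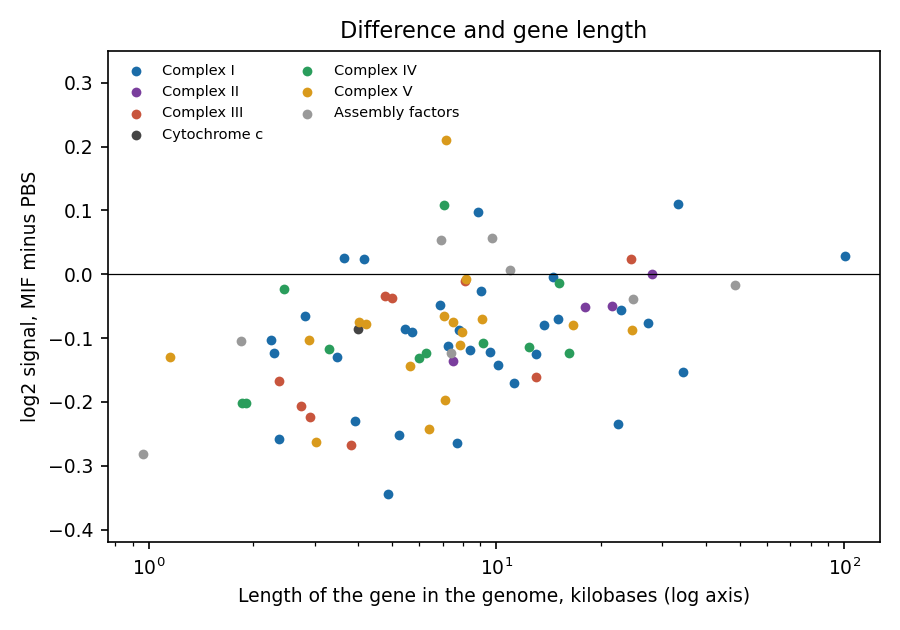
Log2 signal, MIF minus PBS (y), against gene length in kilobases on a log axis (x) for the 82 assessed members, coloured by complex. Most of the lowest points are short genes, Ndufa12 at 22406 bases being an exception, and the longest gene, Ndufs4 at 100300 bases, lies at 0.03.

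Other genes of respiration outside the name rule were compared by lists, as deposited. The lists were not matched to the members in signal, and many of their genes were dimmer. Of 40 further assembly factors, 27 were assessed, with a median of 0.0049 and 12 below 0. The largest differences were in Timmdc1, a complex I factor, which was under the floor on the PBS array and at least 1.77-fold higher, and Uqcc2, a complex III factor, at 1320 and 1020 (-0.37). Genes that bring electrons to ubiquinone or make it had a median of -0.09 over 15 assessed genes, 13 below 0. Prodh, proline dehydrogenase, went from 403 to 311 (-0.37), and Coq8b, a kinase-like protein of ubiquinone synthesis, from 286 to 241 (-0.24), near the floor. A list on the movement of adenine nucleotides, phosphate and protons had a median of -0.02 over 9 assessed genes. It held carriers and channels, and also Atpif1, Ckmt1 and Ppif, which are neither. The largest differences were in the phosphate carrier Slc25a3, at 11081 and 9599 (-0.21), and the channel Vdac2 (-0.07). Atpif1, the inhibitor of the ATP synthase, was the middle gene of this list, at 5514 and 5425 (-0.02).

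Regulators of mitochondrial gene expression had a median of 0.0014 over 17 assessed genes, with 8 below 0. Pprc1, a coactivator related to PGC-1, went from 410 to 322 (-0.35). Mterf3, a regulator of mitochondrial transcription and ribosomes, went from 754 to 873 (0.21). Esrra, the gene of ERRA, differed by 0.21, Gabpa by 0.10 and Yy1 by 0.0057, whereas Nrf1 lay below the floor in both groups. Ppargc1a, which encodes PGC-1 alpha, had signals of 295 and 313 (0.09), near the floor. The related Ppargc1b was brighter, at 2182 and 2464 (0.18). The lists were not tested against each other.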

How the data were processed

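Per the labels' protocols, Trizol was used to extract total RNA, and biotin-labelled cRNA was made for Affymetrix arrays. The deposited values are signal intensity per probe set on a linear scale, as read from the values. How the authors summarised probes, corrected background, scaled the arrays and chose the 15340 probe sets is not given in the sources used here. After removal of 61 controls, 14049 of 15279 probe sets had 1 gene symbol in GEO's platform annotation, which can be old. The 490 with several symbols and the 740 with no symbol were not named. All 85 members matched the RefSeq gene table by Entrez ID. The columns were used as deposited, since their medians differed by 0.04 on the log2 scale.

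Values were raised to the 40th percentile of the signals and log2 differences taken, with 2884 genes below the floor in both groups. With 1 array per group no p-value was computed. Thresholds were 1.2-fold and 1.5-fold. Any member may be named. Both signals are given for the 4 largest differences in complexes I, III, IV and V, and for complex II, cytochrome c and the assembly factors. Signals of other members, and Esrra, Gabpa, Yy1, Nrf1, Ppargc1a, Ppargc1b, Atpif1, Gzma, Gzmb, Lyz2, Dcn, Col3a1 and Vim, were added after values were seen. So were the tallies by gene length and the choice of promoters printed. For other lists the 2 largest differences were named. The members and lists were chosen with earlier results of these data known. The gene step was tested on simulated data. Alternatives were median centring, quantile normalization, removal of a loess trend (span 0.3), floors at the 20th and 60th percentile or none, averaged probe sets, no _x_at and _s_at probe sets, a 1.5-fold limit, and subunits only. Many respiratory genes have processed pseudogenes or near copies, so cross-hybridisation may touch their signals. The brightest probe set was of the _x_at or _s_at type for 17 members. Software was pandas 2.3.3, numpy 2.4.6, matplotlib 3.10.9 and statsmodels 0.14.6 in Python 3.11.15.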

Additional observations from a re-analysis of the deposited data

How the results depend on the processing

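The median log2 difference of the oxidative phosphorylation genes lay between -0.13 (median centring) and -0.04 (quantile normalization, and removal of the loess trend) over the 8 alternatives, and was -0.10 with subunits only. The medians of complexes I, III, IV and V stayed below 0 under these 8 alternatives, whereas that of complex II was 0.0041 with the loess trend removed. The smallest values of those 4 medians came with these 2 scalings, at -0.06 for complex I, -0.04 for IV and -0.02 for V, and for III, at -0.10, without cross-hybridising probe sets. The number of members lower by 1.2-fold was 5, and became 10 with median centring (12.2%, against 8.90% of all assessed genes). It was 2 with quantile normalization (2.44% against 7.28%) and 2 with the loess trend removed (2.44% against 6.96%). At 1.5-fold it was 0, against 0.463%. The number higher by 1.2-fold was 0 in each setting. The number below 0 was 70, and 58 with quantile normalization or with the loess trend removed. Of 646 differences of single members under the alternatives, 10, each in another gene, moved beyond 0.09, the pooled SD of repeat probe sets, and no member lower by 1.2-fold changed sign. The cause of these shifts was not tested. No paired analysis was possible because each group has 1 array. Signal over background is unknown beyond the floor, which left 3 members without a value.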

Other observations

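Of the probe sets annotated to several genes, 7 include a gene of these families, so they carry no single name here. One was below the floor in both groups. The other 6 had log2 differences from -0.18 to 0.04, with a median of -0.05 and 4 below 0, within the range of the named members.

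As a sign of RNA quality, the 3' over 5' control ratio of beta-actin was 1.31 with PBS and 1.33 with MIF, that of Gapdh 0.798 and 0.796, and that of the transferrin receptor 2.34 and 2.23.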
